A study of Mus musculus with 9 samples.

Results

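The retinoid genes described here are 9 mouse genes, namely enzymes of retinol and retinal, related aldehyde dehydrogenases and retinoic acid receptors: *Rdh10*, *Dhrs3*, *Aldh1a1*, *Aldh1a2*, *Aldh1a7*, *Aldh3a2*, *Rara*, *Rarb* and *Rarg*. They were chosen by name, with the fold changes of the authors' deposited comparisons already known, and they are described here without a test. Of the 9 genes, 8 were found in both deposited tables, which share 13259 genes, and *Aldh1a2* was found in neither. The data come from AML12 cells, a hepatocyte line from a mouse carrying a TGFα transgene, grown with dexamethasone and infected with lentivirus carrying a control hairpin (Ctrl), Srrm2 shRNA 1 (sh1) or Srrm2 shRNA 2 (sh2). There were 3 RNA-seq libraries in each of the 3 groups, and the hairpin libraries were taken on day 5. Srrm2 is a scaffold protein of nuclear speckles, the nuclear bodies in which splicing factors gather. The labels give neither the sequence targeted by the Ctrl hairpin nor its time, and do not say whether the libraries of a group came from separate cultures.

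Retinol (vitamin A) is turned into retinoic acid in a pair of oxidation steps. Retinol dehydrogenases make retinal, and retinaldehyde dehydrogenases of the ALDH1A family make retinoic acid from it, while reductases such as DHRS3 return retinal to retinol. Retinoic acid binds the receptors RARα, RARβ and RARγ, which act on DNA with a retinoid X receptor as partner, and CYP26 enzymes break it down. The liver stores vitamin A in stellate cells, and hepatocytes release it to the blood bound to the carrier protein RBP4.

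The value used is the mean normalized count that the authors gave for each gene in each table, here called the pooled mean. It is an average over the Ctrl libraries and the libraries of 1 hairpin, so it holds no value per library, no SD and no value for Ctrl alone. No test could be made from it and no error can be given for any value below. The table of shRNA 1 lists 13424 genes whose pooled means sum to 6144608, and the table of shRNA 2 lists 13478 genes whose pooled means sum to 6393456. Size factors were set separately in each table, so before the tables were compared the pooled means of shRNA 2 were divided by 1.05, the median ratio of the 2 tables over genes with a pooled mean of at least 10 in both. A ratio below is the scaled pooled mean of the table of shRNA 2 over the pooled mean of the table of shRNA 1, and a ratio over 1.2 or under its inverse is named as past 1.2-fold. If the same 3 Ctrl libraries enter both tables, they dilute any difference between the hairpins, and the ratio between the sh2 and the sh1 libraries themselves is then at least as far from 1 as the ratio of the pooled means. The labels tie Ctrl replicate 1 to both tables, but tie Ctrl replicates 2 and 3 to the table of shRNA 1 and to tables of further hairpins not analysed here, so this condition is taken from the design and not from the labels. In bulk RNA, fewer cells that express a gene and less RNA per cell cannot be told apart.

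*Srrm2* itself (ENSMUSG00000039218.9) had pooled means of 3428 and 3759 and a ratio of 1.04, which says nothing of the knockdown because Ctrl and hairpin libraries are averaged. The hepatocyte markers were present for 11 of 12 genes, with *Alb* at pooled means of 2151 and 1814 and *Hnf4a*, a hepatocyte transcription factor, at 1498 and 1624, whereas *Cps1*, of the urea cycle, was at 26.2 and 20.0 and *Asgr1* was not among the genes analysed. Markers of bile duct cells were present too, with *Krt19* at 2851 and 2753, and 3 of 4 were found. Of 7 stellate cell markers only *Des*, at 8.03 and 5.67, and *Gfap*, at 2.26 in the table of shRNA 1, were found. Macrophage markers were low, with 2 of 4 found and summed pooled means of 30.4 and 35.3, and 0 of 4 endothelial markers were found.

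Of the 8 retinoid genes with values, 3 were past 1.2-fold between the tables: *Rdh10* and *Rarb* were higher in the table of shRNA 2 and *Aldh1a1* was lower. The median ratio of the 8 was 1.05. Over all 13259 genes the median ratio was 1.001, and 18.5% were past 1.2-fold, 1217 of them higher and 1236 lower in the table of shRNA 2. The spread of the ratio depended on level. Past 1.2-fold were 50.9% of the 1696 genes with a mean under 10 (the mean of both pooled means after scaling), 26.0% of the 3717 genes between 10 and 100, and 7.93% of the 7846 genes at 100 or more. A difference of that size was therefore common among low genes and uncommon among genes of the level of *Rdh10* and *Aldh1a1*. These classes of level were chosen after the values had been seen.

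**Figure D1:**
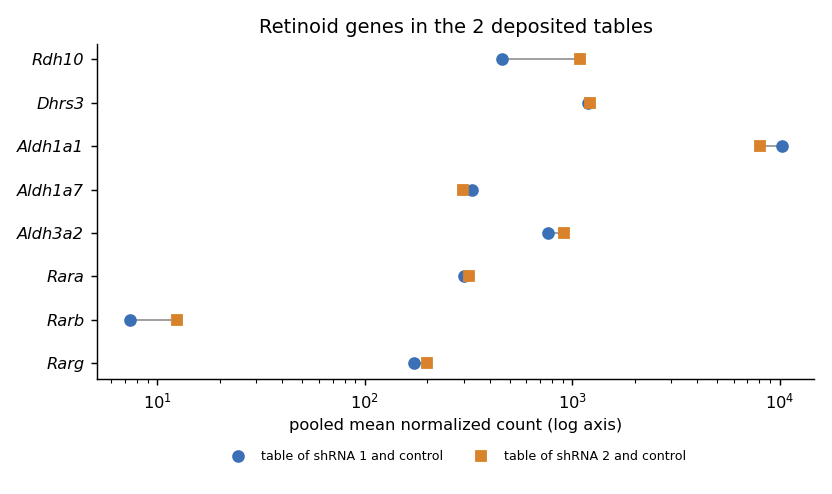
Pooled mean normalized count (log axis) of the 8 retinoid genes with values in the table of shRNA 1 and Ctrl (circles) and the table of shRNA 2 and Ctrl (squares), as deposited and before scaling, with a line joining the values of 1 gene. *Rdh10* moves from 461 to 1090.3, *Aldh1a1* from 10254.5 to 8029 and *Rarb* from 7.34 to 12.4, and the symbols of the other genes lie close together.

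*Rdh10* (ENSMUSG00000025921.7) encodes the retinol dehydrogenase that makes retinal for retinoic acid synthesis in the embryo. It lies on chromosome 1 of mm9 from 16095855 to 16123815 on the + strand, with 2 annotated transcripts. Its pooled mean was 461 in the table of shRNA 1 and 1090.3 in the table of shRNA 2, or 1037 after scaling. The ratio of 2.25 was the highest of all 7757 genes with a pooled mean of at least 100 in both tables. Among the 7846 genes with a mean of at least 100, 0.051% (4 genes) were more than 2-fold apart, 2 of them higher and 2 lower in the table of shRNA 2.

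The size of this ratio also bears on the comparison with Ctrl, if the Ctrl libraries are shared. The Ctrl and sh1 means of *Rdh10* add up to 921 normalized counts, so neither can be above that. The sh2 mean must then be at least 1153 on the same scale. This places the sh2 libraries at least 2.25-fold above the sh1 libraries and at least 1.25-fold above Ctrl, and the other scalings gave higher bounds. The bounds take the pooled means as exact, since their error is not known, and the level of *Rdh10* in sh1 libraries relative to Ctrl cannot be derived.

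The genes around *Rdh10* did not show this difference. Within 500 kb on either side 4 genes were in both tables, *Terf1*, *Rpl7*, *Stau2* and *Ube2w*, and their ratios lay between 0.869 and 1.09 with a median of 1.002. No annotated exon of another gene overlaps those of *Rdh10*, nor those of the other 8 retinoid genes.

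*Dhrs3* (ENSMUSG00000066026.7; chromosome 4, 144482730 to 144518112, + strand) encodes the reductase that takes retinal back to retinol and is itself induced by retinoic acid in many tissues. Its pooled means were 1188 and 1215, a ratio of 0.973, so the opposing enzyme of the same step was at nearly the same level in both tables. Per kilobase of exons, *Dhrs3* stood 3.66-fold above *Rdh10* in the table of shRNA 1 and 1.58-fold above it in the table of shRNA 2.

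**Figure D2:**
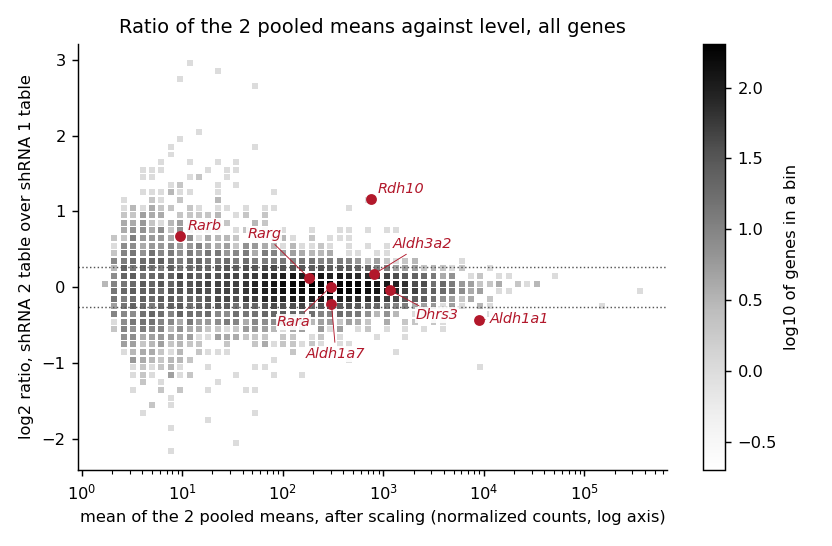
Log2 ratio of the pooled means (table of shRNA 2 over table of shRNA 1, scaled) against the mean of both, in normalized counts on a log axis. Grey squares are bins of all 13259 genes, darker with more genes, red points are the 8 retinoid genes, and dotted lines mark 1.2-fold. *Rdh10* stands apart from genes of its level, *Aldh1a1* lies at the lower edge, and *Rarb* lies where low genes scatter widely.

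*Aldh1a1* (ENSMUSG00000053279.6; chromosome 19, 20676451 to 20717952, + strand) encodes a retinaldehyde dehydrogenase that is abundant in liver. It was the highest of the retinoid genes by far, with a pooled mean of 10254.5 in the table of shRNA 1, the 26th highest of all genes there, and 8029 in the table of shRNA 2, the 44th highest. After scaling the second value was 7636, a ratio of 0.745, and only 80 of the 7757 genes with a pooled mean of at least 100 in both tables had a lower ratio. With shared Ctrl libraries the sh1 libraries were thus at least 1.34-fold above the sh2 libraries under this scaling and at least 1.28-fold without scaling, the lowest value of the scalings tried, and the gap between them came to 5237 normalized counts under this scaling. Among the hepatocyte markers *Alb* had a ratio of 0.802, *Cps1* 0.725 and *Afp* 0.743, while the list of 11 had a median of 0.939 and summed pooled means of 25189 and 23881. Their part in the value of *Aldh1a1* was not tested.

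*Aldh1a7* (ENSMUSG00000024747.3) is a close rodent copy of *Aldh1a1* on the other strand of the same chromosome, from 20767443 to 20802052, and its protein is not known for making retinoic acid. Its pooled means were 328 and 297, or 283 after scaling, a ratio of 0.863, which is below 1 as for *Aldh1a1* but not past 1.2-fold. The next listed gene in the region, *Anxa1*, had a ratio of 0.951. The coding sequences of *Aldh1a1* and *Aldh1a7* have the same length, 1506 bases, and are the same at 1380 of them (91.6%). The stretch below, bases 73 to 102 of the coding sequence in exon 2 of both genes, is shown because it differs about as often as the whole. It is written 5′ to 3′ on the coding strand from mm9, with the bases that differ in capitals, at chr19:20685409-20685438 (+) and chr19:20801517-20801546 (-).
Aldh1a1: ataaacaatgaatggcaCAattcAgtgagc
Aldh1a7: ataaacaatgaatggcaTGattcGgtgagc

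The authors kept read pairs that mapped to 1 place. The longest stretch in which both coding sequences are identical has 100 bases. Of all windows of 50 bases along the *Aldh1a7* transcript 7.49% occur in the *Aldh1a1* transcript as well, and of windows of 100 bases 0.051%. Read length is not given in the sources used here. With *Aldh1a1* 31.5-fold above *Aldh1a7* per kilobase in the table of shRNA 1 and 27.2-fold in that of shRNA 2, a small share of misplaced reads would weigh on *Aldh1a7*. Misplaced reads were not measured, and how far they bear on the value of *Aldh1a7* was not tested.

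*Aldh1a2* (ENSMUSG00000013584.5; chromosome 9, 71063596 to 71144050, + strand), the retinaldehyde dehydrogenase of the early embryo, was in neither table. The lowest pooled means listed were 1.56 and 1.92. Why a gene was left out of a table is not given in the sources used here, so absence of a gene is not read as lack of expression. *Aldh3a2* (ENSMUSG00000010025.11; chromosome 11, 61036919 to 61080966, - strand) encodes a fatty aldehyde dehydrogenase of the endoplasmic reticulum whose main substrates are long-chain aldehydes. Its pooled means were 767 and 914, or 869 after scaling, and its ratio of 1.13 did not pass 1.2-fold.

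The receptors *Rara* and *Rarg* were close to the same level in both tables. *Rara* (ENSMUSG00000037992.9; chromosome 11, 98789132 to 98836256, + strand) had pooled means of 301 and 318 and a ratio of 1.01. *Rarg* (ENSMUSG00000001288.8; chromosome 15, 102065369 to 102087948, - strand) had 173 and 199 and a ratio of 1.09. Neither was past 1.2-fold.

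*Rarb* (ENSMUSG00000017491.7; chromosome 14, 17263356 to 17651381, - strand) encodes the receptor whose own gene is a classic target of retinoic acid. Its pooled mean was 7.34 in the table of shRNA 1 and 12.4 in the table of shRNA 2, or 11.8 after scaling, a ratio of 1.61. With so few normalized counts the ratio is imprecise. It ranked 223rd from the top of 13259 genes. In its class of level, means under 10, 50.9% of genes were past 1.2-fold, a lower limit than this ratio. In the next class, 10 to 100, the share was 26.0%. The log2 ratio of *Rarb* was 0.683, and the SD of the log2 ratio over the genes with a mean under 10 was 0.465.

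The response element through which retinoic acid acts on *Rarb* is shown because it is the textbook site of retinoic acid receptor binding. It was sought as GTTCA or GGTCA, 6 bases of any kind, and GTTCA or GGTCA again, on both strands, in the RefSeq promoters of GRCm38.p6, which run from 250 bases before to 50 bases after each start. The pattern holds the last 5 bases of each repeat of 6 bases and leaves the first base free. Between whole repeats the spacing is thus 5 bases. Of the 9 retinoid genes, 8 have 15 promoters in that set and *Rdh10* has none. A match at *Rarb* was fixed in advance, since the pattern describes that site, and is no sign of enrichment among these genes. The element was found in 1 of the 15, that of *Rarb*, and in 0.247% of all 32851 promoters. The match lies 52 to 37 bases before the start, at chr14:16575506-16575535 of GRCm38.p6 on the - strand with its flanks. The capitals mark the last 5 bases of each repeat, and the base before each stretch of capitals is the first of that repeat.
Rarb: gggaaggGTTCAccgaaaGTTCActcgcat

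Levels are compared between genes per kilobase of exons, counting every annotated exon base once. The order in the table of shRNA 1 was *Aldh1a1* (4995 normalized counts per kilobase), *Dhrs3* (406), *Aldh1a7* (159), *Aldh3a2* (137), *Rdh10* (111), *Rara* (65.7), *Rarg* (42.2) and *Rarb* (2.23). In the table of shRNA 2 *Rdh10* stood at 262 per kilobase and took the third place. *Aldh3a2* (163) and *Aldh1a7* (144) followed it, in the reverse of their order in the table of shRNA 1. The other genes kept their places. With no spread between libraries, neighbours in this order cannot be said to differ. The median of all genes was 43.1 per kilobase in the table of shRNA 1 and 44.8 in that of shRNA 2, so 6 of the retinoid genes were above it in the former and 7 in the latter, *Rarg* being the one that crossed. With the length of the longest transcript or the mean length of the transcripts in place of all exon bases, 7 were above the median in both tables.
*Aldh1a1* held 96.9% of the summed level per kilobase of *Aldh1a1* and *Aldh1a7* in the table of shRNA 1 and 96.5% in that of shRNA 2. Of the summed receptor level per kilobase, *Rara* held 59.7% and 57.2%, *Rarg* 38.3% and 39.7%, and *Rarb* 2.03% and 3.09%.

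**Figure D3:**
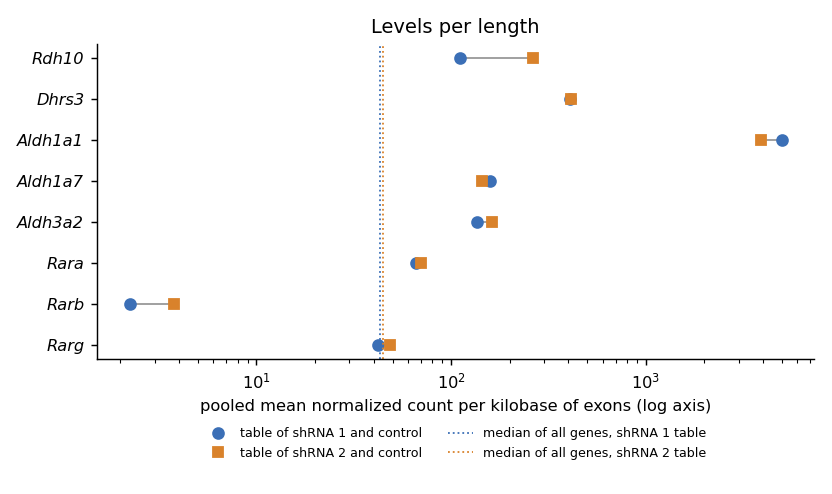
Pooled mean normalized count per kilobase of annotated exons (log axis) for the 8 retinoid genes in the table of shRNA 1 (circles) and of shRNA 2 (squares), before scaling, with the medians of all genes as dotted lines. *Aldh1a1* lies near 4995 and 3911, *Rarb* at 2.23 and 3.76 is the only gene far below the medians, and *Rarg* straddles them.

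The other genes of retinoid metabolism and action were taken from lists of 55 annotated genes, of which 39 were in both tables. Of the 39, 9 were past 1.2-fold, 5 higher and 4 lower in the table of shRNA 2, with a median ratio of 1.01, against 18.5% of all genes. At a mean of at least 100 there were 23 of these genes and 4 were past 1.2-fold, namely *Stra6*, *Rbp4*, *Retsat* and *Bcmo1*, against 7.93% of all genes of that level. The lists were chosen with earlier results of these data known, so neither count is a sign of enrichment.

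Genes of retinol binding, uptake and storage held the lowest and the highest ratio of these lists at a mean of at least 100. *Stra6*, the cell-surface receptor that takes up retinol from RBP4 and is induced by retinoic acid, had pooled means of 335 and 564 and a ratio of 1.60, in the direction of *Rdh10*. *Rbp4*, the plasma carrier that hepatocytes secrete, had 588 and 371 and a ratio of 0.600, in the direction of *Aldh1a1*. *Ttr*, the plasma partner of RBP4, had the highest level of the list, 2497 and 2640, and a ratio of 1.01. *Lrat*, the enzyme that stores retinol as esters in stellate cells, was not found, nor were *Crabp1*, *Crabp2* and *Rbp7*.

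Among 13 retinol and retinal oxidoreductases in both tables, 3 were past 1.2-fold upward in the table of shRNA 2 and 2 downward. *Retsat*, which saturates retinol, had pooled means of 563 and 452 and a ratio of 0.765. The others were low: *Adh1*, an alcohol dehydrogenase that oxidizes retinol, was at 21.3 and 39.8 (ratio 1.78), and *Dhrs9*, *Rdh1* and *Adh7* had means under 10. Of all genes with a mean under 10, 50.9% were past 1.2-fold, and 26.0% of those between 10 and 100. Exons of *Rdh1* overlap those of *Rdh9* on the same strand. *Adh5*, the highest here after *Retsat* in the table of shRNA 1, was at 521 and 531 with a ratio of 0.969. *Bcmo1*, which cleaves β-carotene to retinal, was at 121 and 104 with a ratio of 0.816.

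Of 5 other aldehyde dehydrogenases in both tables, only *Aldh1b1* was past 1.2-fold, at pooled means of 4.80 and 10.6 (ratio 2.10). *Aldh2*, the mitochondrial enzyme of acetaldehyde oxidation, was the highest of these at 1390.0 and 1440.3 and had a ratio of 0.985. Among the enzymes that break down retinoic acid, *Cyp26b1* was at 5.96 and 5.61 and *Cyp26c1* at 13.4 and 14.3, and neither was past 1.2-fold.

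All 7 receptor partners and coregulators in both tables lay between ratios of 0.927 and 1.08, while *Rxrg* and *Ncoa1* of the same list were in neither table. *Rxra*, the main retinoid X receptor of liver, was at 415 and 451 with a ratio of 1.03, and the corepressor *Ncor1* had a ratio of 0.927. The 3 further retinoic acid targets with values were not past 1.2-fold either. *Tgm2*, a transglutaminase induced by retinoic acid, was at 5170 and 5200 with a ratio of 0.956, and *Nrip1* had a ratio of 1.06.

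**Figure D4:**
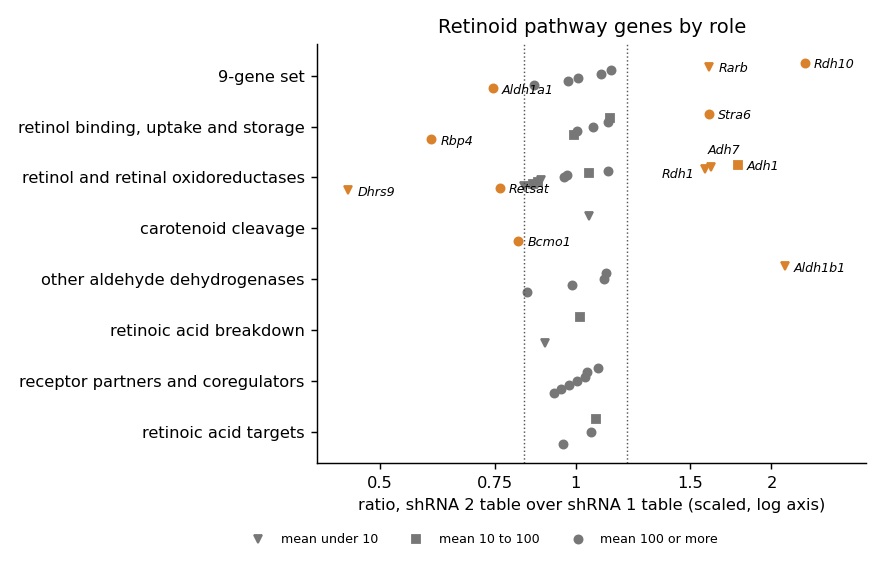
Ratio of the pooled means (table of shRNA 2 over table of shRNA 1, scaled, log axis) for the 8 retinoid genes in the top row and for 39 further genes by role, with triangles for means under 10, squares for 10 to 100 and circles for 100 or more. Genes past 1.2-fold (dotted lines) are orange and named. *Rdh10*, *Stra6*, *Rbp4*, *Retsat*, *Aldh1a1* and *Bcmo1* are the circles outside the lines, and receptor partners and retinoic acid targets all lie inside them.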

How the data were processed

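RNA was sequenced from 9 AML12 libraries, 3 each of Ctrl, sh1 and sh2, grouped by the sample titles. Per the labels and the methods, the authors used TopHat2 for mapping to mm9, HTSeq for counting unique pairs per gene of GENCODE M1, and DESeq2 1.8.2. Each of the 2 deposited tables gives a signal per gene, the mean of the gene's counts over the libraries of the table after division by size factors. The other 5 columns of each table (log2 fold change, standard error, statistic, p-value and adjusted p-value) are the authors' comparisons and were not used, so the 10 columns enter no value here. The counting strand setting is not given in the sources used here.

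Gene identifiers all matched GENCODE M1 on NCBIM37, the assembly of mm9, from which positions and exon lengths were taken. The ratio of the tables was scaled by the median ratio, and the steps were run on simulated data. In the simulation the same Ctrl libraries entered both tables, so it took that condition as given and did not test it. The genes, the lists and the 1.2-fold limit were chosen with earlier results of these data known. Named are the 9 genes, *Srrm2*, and of each list the highest genes and those past 1.2-fold, with further genes named after their values were seen. Some genes of the lists are not reported here by name. Precision depends on read depth per library, which the pooled means do not give. Alternatives were other scalings, folds, minimum means, reference genes and lengths. Python 3.11.15, numpy 2.4.6, pandas 2.3.3 and matplotlib 3.10.9 were used.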

Additional observations from a re-analysis of the deposited data

How the results depend on the processing

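The scaling of the tables did not change which way *Rdh10*, *Aldh1a1* and *Rarb* differed: across the other scalings, including none, their ratios lay between 2.26 and 2.37, 0.747 and 0.783, and 1.61 and 1.69. Without scaling *Dhrs3* went from 0.973 to 1.02. A limit of 1.1-fold gave 5 retinoid genes in place of 3, and 20 of the further pathway genes in place of 9. The share of all genes past 1.1-fold was not taken, so these counts say nothing particular to retinoid genes. At the 1.2-fold limit a minimum pooled mean of 10 left 5 of the 9 further pathway genes, and one of 100 left 4, since low genes are removed. It also removes *Rarb*. The other 18 of 22 alternatives of the counts lay within 1.5 times the value given. No paired analysis was possible because the pooled means carry no replicate, and for the same reason no library could be left out and no test made. The pooled means used here do not give the direction of most genes against Ctrl.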

Other observations

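Of the further pathway genes, 2 were in 1 table alone. *Cyp26a1*, the retinoic acid hydroxylase whose gene is a strong target of retinoic acid, had a pooled mean of 2.87 in the table of shRNA 1, and *Adh4*, an alcohol dehydrogenase of liver, 3.15 in the table of shRNA 2. The levels of *Cyp26a1* and *Adh4* are close to the lowest that the tables list. Of the further pathway genes, 37 had 50 promoters in the RefSeq set. The response element found at *Rarb* was in 1 of the 50, that of *Cyp26a1*, and in 0.247% of all 32851 promoters. Because *Cyp26a1* is a known target of retinoic acid, this match is no sign of enrichment among these genes.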
